A study of Mus musculus with 22 samples.

Results

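The 9 genes analysed here mark the projection neurons of the striatum and were followed through every library of an experiment on the mouse prefrontal cortex (PFC): Drd1, Tac1, Isl1, Drd2, Adora2a, Gpr6, Ppp1r1b, Rgs9 and Adcy5. They were picked by symbol from the 39056 genes of the count table, with earlier results of these data in view, so their levels and their TRAP to total-RNA ratios are given as a description and without a test. All 9 passed the filter on low counts. RNA was measured in 11 male mice, aged 8 to 12 weeks, that carried EGFP-tagged ribosomal protein L10a (Rpl10a), expressed under the CaMKIIα promoter, and all groups shared this transgene. Translating ribosome affinity purification (TRAP) pulls down the tagged ribosomes with their RNA, and total-RNA (INPUT) came from the same PFC lysate before the pull-down, so each mouse gave 2 libraries.

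Control mice (n = 3, mice 1, 4 and 7) received saline intraperitoneally 2 times a day for 4 days. EtOH mice (n = 4, mice 2, 5, 8 and 9) received ethanol instead, to 2 g/kg per day. EtOH + ABT-888 mice (n = 4, mice 3, 6, 10 and 11) received the same ethanol and, on day 4 alone, 25 mg/kg of ABT-888, an inhibitor of poly(ADP-ribose) polymerases, and tissue was taken 2 hours after the last injection. The tag depends on the tTA transgene with the CaMKIIα promoter. CaMKIIα is a kinase that is abundant in the pyramidal neurons of the cortex and is also made by projection neurons of the striatum. The promoter therefore does not mark pyramidal neurons alone. Library totals were 6570957 to 22002618 counted reads in TRAP and 22132534 to 32421392 in total-RNA, with mouse 6 the shallowest in TRAP.

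Striatal projection neurons (SPNs) are GABAergic neurons that make up most of the striatum. Those of the direct pathway carry the D1 dopamine receptor and make substance P, and those of the indirect pathway carry the D2 dopamine receptor and the adenosine receptor encoded by Adora2a. In both kinds these receptors raise or lower cyclic AMP (cAMP) through a shared set of proteins, and DARPP-32, the product of Ppp1r1b, is the classical target of the cAMP-dependent kinase PKA in these cells. The neurons of the neocortex express most of these genes at a lower level or in small subsets. In bulk tissue, fewer cells of a type and less RNA per cell cannot be told apart.

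Because all these receptors act on cAMP, whose best known DNA element is the cAMP response element TGACGTCA, the bases before the start sites were read from RefSeq (GRCm38.p6), which gave a window of 250 bases for 7 of the 9 genes. Adora2a and Ppp1r1b had no entry. The 9 genes had 8 windows in all, and a window that lay wholly inside its annotated gene was left out. No window was left out for this reason from the shares over all windows. The full element was present in 1 of the 7, Gpr6, and in 1.55% of all 32817 windows of this length. Its first 5 bases, TGACG, or the complement CGTCA, which the full element contains, was present in 3 of the 7, Tac1, Isl1 and Gpr6, and in 17.7% of all windows. The stretches that lie outside the annotated genes follow for the 2 dopamine receptors, whose balance is described later, for Tac1 and Isl1, 2 of the genes that passed a treatment test, and for Gpr6, which holds the full element. They run 5′ to 3′ and end at or before the annotated start of the gene, and capitals mark TGACG or CGTCA, including both where they overlap. The second match in the window of Tac1 lies beyond the stretch shown. Drd1 is given for chr13:54055706-54055908 on the minus strand, Drd2 for chr9:49340153-49340402 on the plus strand, Tac1 for chr6:7554811-7554878 on the plus strand, Isl1 for chr13:116309690-116309938 on the minus strand and Gpr6 for chr10:41072291-41072540 on the minus strand.
Drd1: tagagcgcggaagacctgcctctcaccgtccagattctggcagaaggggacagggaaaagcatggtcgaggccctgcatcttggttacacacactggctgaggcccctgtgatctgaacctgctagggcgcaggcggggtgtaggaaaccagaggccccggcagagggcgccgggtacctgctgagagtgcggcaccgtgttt
Drd2: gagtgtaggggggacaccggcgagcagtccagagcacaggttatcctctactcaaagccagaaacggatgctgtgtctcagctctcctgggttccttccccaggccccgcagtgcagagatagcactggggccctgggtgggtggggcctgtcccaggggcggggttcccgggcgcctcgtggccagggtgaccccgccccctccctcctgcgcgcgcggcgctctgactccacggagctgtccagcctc
Tac1: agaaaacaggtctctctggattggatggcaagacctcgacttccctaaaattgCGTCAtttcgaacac
Isl1: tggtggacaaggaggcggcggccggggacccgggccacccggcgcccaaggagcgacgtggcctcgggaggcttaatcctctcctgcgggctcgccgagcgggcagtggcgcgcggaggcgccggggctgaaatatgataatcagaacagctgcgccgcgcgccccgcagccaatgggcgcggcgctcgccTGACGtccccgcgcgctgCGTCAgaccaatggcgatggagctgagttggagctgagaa
Gpr6: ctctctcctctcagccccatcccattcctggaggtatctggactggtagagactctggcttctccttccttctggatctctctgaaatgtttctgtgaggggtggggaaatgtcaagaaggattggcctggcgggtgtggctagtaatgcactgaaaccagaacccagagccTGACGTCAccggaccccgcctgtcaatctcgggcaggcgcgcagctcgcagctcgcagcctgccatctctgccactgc
No capitals stand in the Drd1 and Drd2 stretches, and the absence of these letters says nothing of the factor. A match is likewise a description of the sequence and not a site.

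The receptor and transmitter genes of the direct pathway were abundant in TRAP and low in total-RNA. Levels are counts normalised to library size (CPM) scaled by the trimmed mean of M-values (TMM), given in the order of the mouse numbers named above. Drd1, the Gs/Golf-coupled D1 receptor (chr13:54051183-54055705, minus strand, mm10), was measured at 436, 472 and 365 CPM in Control_TRAP, at 471, 441, 531 and 356 in EtOH_TRAP and at 441, 455, 454 and 468 in EtOH + ABT-888_TRAP. In total-RNA its level was 65.03, 81.00 and 75.2 CPM in Control, 87.5, 115, 73.4 and 77.8 in EtOH and 80.3, 62.8, 60.2 and 79.9 in EtOH + ABT-888. The treatment groups overlapped in both pools, while the lowest TRAP library lay above the highest total-RNA library, and the ratio of TRAP to total-RNA within a mouse ran from 3.85 to 7.54 with a median of 5.83.

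Tac1 (chr6:7554879-7565834, plus strand) encodes the precursor of substance P and neurokinin A. Its level was 435, 408 and 352 CPM in Control_TRAP, 561, 492, 683 and 367 in EtOH_TRAP and 363, 421, 475 and 520.1 in EtOH + ABT-888_TRAP. In total-RNA it was 52.3, 48.6 and 52.2 CPM in Control, 98.02, 91.5, 69.1 and 62.5 in EtOH and 59.7, 36.8, 58.4 and 63.5 in EtOH + ABT-888. Every EtOH_total-RNA library lay above every Control_total-RNA library, while in TRAP the groups overlapped. Within a mouse the TRAP level was 5.38 to 11.4 times the total-RNA level, with a median of 8.14.

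Isl1 (chr13:116298281-116309689, minus strand) encodes a LIM homeodomain factor that direct-pathway SPNs and cholinergic interneurons need in development. It had the lowest level of the 9, with 14.5, 19.96 and 15.2 CPM in Control_TRAP, 16.8, 27.6, 22.96 and 17.8 in EtOH_TRAP and 17.8, 22.6, 19.6 and 18.5 in EtOH + ABT-888_TRAP. In total-RNA its level was 2.74, 2.48 and 3.58 CPM in Control, 7.43, 7.39, 3.17 and 4.44 in EtOH and 3.44, 2.94, 3.01 and 4.04 in EtOH + ABT-888. Mice 2 and 5 were the highest in total-RNA and mouse 8 lay within the Control range. These values rested on 66 to 254 reads per total-RNA library and 136 to 595 per TRAP library, the fewest of any of the genes in each pool, and the ratio of TRAP to total-RNA within a mouse ran from 2.27 to 8.05 with a median of 5.19, the widest spread of the 9 on the log2 scale (SD 0.54).

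Among the indirect-pathway genes were the 2 with the largest median ratios of TRAP to total-RNA, Adora2a and Drd2. Drd2, the Gi/o-coupled D2 receptor (chr9:49340627-49408177, plus strand), was measured at 668, 631 and 512 CPM in Control_TRAP, at 388, 394, 373 and 459 in EtOH_TRAP and at 454, 406, 392 and 589.8 in EtOH + ABT-888_TRAP. All 4 EtOH libraries lay below all 3 Control libraries, and mouse 11 of EtOH + ABT-888 reached into the Control range. In total-RNA the level was 48.3, 68.8 and 51.7 CPM in Control, 35.6, 62.5, 32.3 and 44.4 in EtOH and 53.3, 36.7, 29.6 and 40.98 in EtOH + ABT-888, and both treated groups overlapped Control. The ratio within a mouse ran from 6.31 to 14.4 with a median of 10.9.

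Adora2a, a Gs/Golf-coupled adenosine receptor (chr10:75316877-75334784, plus strand), was measured at 709, 843 and 622 CPM in Control_TRAP, at 561, 703, 531 and 648 in EtOH_TRAP and at 714, 634, 752 and 806 in EtOH + ABT-888_TRAP. Its total-RNA level was 49.4, 71.6 and 53.1 CPM in Control, 44.9, 88.2, 44.5 and 56.8 in EtOH and 70.4, 39.6, 50.01 and 53.4 in EtOH + ABT-888. The treatment groups overlapped in both pools. Its ratio within a mouse had the highest median of the 9, 11.9, and ran from 7.97 to 16.01.

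Gpr6, an orphan receptor with constitutive activity towards cAMP (chr10:41069977-41072285, minus strand), was measured at 128, 132 and 125 CPM in Control_TRAP, at 107, 114, 134 and 107 in EtOH_TRAP and at 139.8, 68.3, 122 and 122 in EtOH + ABT-888_TRAP. Its total-RNA level was 14.9, 16.8 and 15.7 CPM in Control, 13.3, 24.7, 12.9 and 11.3 in EtOH and 16.9, 10.8, 10.7 and 12.3 in EtOH + ABT-888. Groups overlapped in both pools, although mouse 6, the shallowest TRAP library, was the lowest in TRAP and mouse 5 the highest in total-RNA. The ratio within a mouse ran from 4.599 to 11.5 with a median of 8.28.

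Both pathways share the 3 remaining genes, among them Ppp1r1b, whose median level per kilobase of exon was the highest of the 9 in both pools. Ppp1r1b, which encodes DARPP-32 (chr11:98348404-98357796, plus strand), was measured at 2254, 2775 and 1948 CPM in Control_TRAP, at 3500.3, 3844, 3215 and 2578 in EtOH_TRAP and at 2683, 2481, 3657 and 2953 in EtOH + ABT-888_TRAP. In total-RNA its level was 254, 317 and 281 CPM in Control, 468, 585, 388 and 369 in EtOH and 337, 281, 422 and 351 in EtOH + ABT-888, and the EtOH libraries all lay above the Control libraries. The ratio within a mouse kept to 6.57 to 8.88 with a median of 8.29. The gene shares exon bases with 1700003D09Rik on the opposite strand, and the strand setting of the counting is not given in the sources used here, but that gene had 5 to 82 reads per TRAP library and 5 to 29 per total-RNA library against 16563 to 82970 and 6123 to 18612 for Ppp1r1b.

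Rgs9, whose striatal product speeds the shut-off of Gi/o signals (chr11:109225355-109298129, minus strand), was measured at 531, 536 and 586 CPM in Control_TRAP, at 564, 421, 819 and 688 in EtOH_TRAP and at 609.9, 518, 637 and 675 in EtOH + ABT-888_TRAP. Its total-RNA level was 89.2, 109 and 97.7 CPM in Control, 97.9, 108, 98.3 and 86.4 in EtOH and 104, 62.2, 75.2 and 88.2 in EtOH + ABT-888. The groups overlapped in both pools, and the ratio within a mouse ran from 3.89 to 8.47 with a median of 6.00.

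Adcy5, the main adenylyl cyclase of the striatum (chr16:35154877-35305738, plus strand), was measured at 1898, 2465 and 1706 CPM in Control_TRAP, at 1551, 1256, 1595 and 1912 in EtOH_TRAP and at 2489, 1434, 1647 and 1856 in EtOH + ABT-888_TRAP. Its total-RNA level was 268, 385 and 289.9 CPM in Control, 271, 337, 256 and 281 in EtOH and 399.6, 227, 225 and 268 in EtOH + ABT-888. The groups overlapped throughout, and the ratio within a mouse ran from 3.73 to 7.31 with a median of 6.30.

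**Figure D1:**
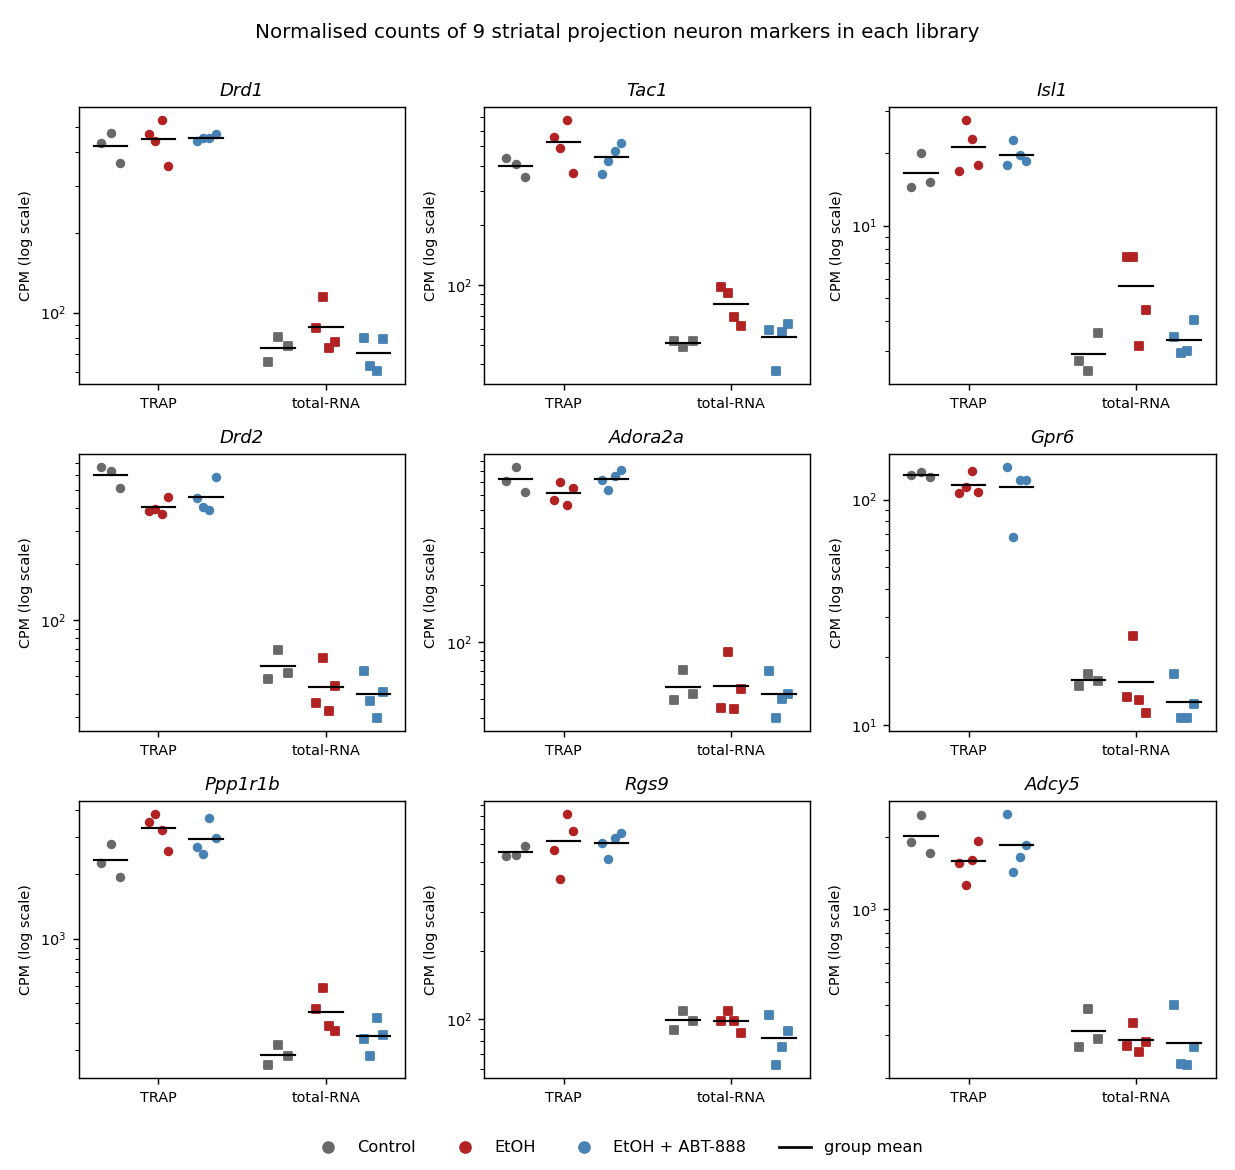
Normalised counts of each gene in every library, in CPM on a log axis whose range differs between panels, for TRAP (circles) and total-RNA (squares), with 3 Control mice and 4 mice in each treated group. Horizontal lines are group means. For each gene all 11 TRAP libraries lie above all 11 total-RNA libraries.

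Each of the 9 genes was higher in TRAP than in total-RNA in 11 of 11 mice, which held for 24.6% of the 14072 genes. In 5 of them, Tac1, Drd2, Adora2a, Gpr6 and Ppp1r1b, the TRAP level was more than 4 times the total-RNA level in all 11 mice, against 0.377% of all genes. Between Control_TRAP and Control_total-RNA the log2 fold change (± SE, edgeR) was 2.51 ± 0.12 for Drd1, 2.95 ± 0.10 for Tac1 and 2.48 ± 0.20 for Isl1. It was 3.40 ± 0.15 for Drd2, 3.62 ± 0.16 for Adora2a and 3.01 ± 0.10 for Gpr6. For the shared genes it was 3.01 ± 0.14 for Ppp1r1b, 2.47 ± 0.10 for Rgs9 and 2.67 ± 0.17 for Adcy5. Ordered by this difference among the 14072 genes, Adora2a stood 4th and Drd2 14th, and Rgs9 was the last of the 9 at rank 89. In this comparison 29.5% of all genes passed the test as higher in TRAP, and nothing is read from that share since the genes were chosen with this contrast in view.

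Treated mice showed the same direction. In EtOH the log2 fold change of TRAP against total-RNA lay between 1.90 ± 0.29 for Isl1 and 3.36 ± 0.22 for Adora2a, with 24.3% of all genes called higher. With EtOH + ABT-888 it lay between 2.54 ± 0.22 for Isl1 and 3.77 ± 0.19 for Adora2a, with 19.5% of all genes called higher. The median over the 9 was 2.95 in Control, 2.69 in EtOH and 3.03 in EtOH + ABT-888. By mouse, the median ratio of the 9 genes was 6.74 to 8.32 in Control. In EtOH it was 5.76, 4.599, 8.33 and 6.99 in mice 2, 5, 8 and 9, and in EtOH + ABT-888 it was 6.23, 8.33, 8.47 and 8.19 in mice 3, 6, 10 and 11. The 3 groups overlapped.

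Per kilobase of exon, which allows genes to be compared, Ppp1r1b had the highest level in both pools, with a median of 947.8 CPM per kb in TRAP and 120.0 in total-RNA, and its range did not overlap that of the next gene, Adcy5. In TRAP the order then ran from Adcy5 (median 237 CPM per kb) through Adora2a (229.5), Drd2 (178), Tac1 (128), Drd1 (125), Rgs9 (91.7) and Gpr6 (68.6) to Isl1 (4.68). Neighbours from Adcy5 to Gpr6 overlapped in their ranges over the 11 libraries, and Adcy5 was above Adora2a in 7 of 11 mice. Gpr6 and Isl1 did not overlap. In total-RNA the order differed in the middle: Adcy5 (37.8) was followed by Drd1 (21.4), Tac1 (17.6), Drd2 (17.4), Adora2a (17.4), Rgs9 (15.3), Gpr6 (7.45) and Isl1 (0.869). There Drd2 was above Adora2a in 4 of 11 mice and Tac1 above Drd2 in 6 of 11, so these neighbours were not separated.

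Markers of other cells of the PFC were checked on the same libraries. The lists were drawn up with earlier results known. Among the SPN genes that are low in cortex, 14 of 16 tested genes were called higher in Control_TRAP than in Control_total-RNA, 0 were called lower, and the median log2 fold change was 2.51. The 2 others were Drd3, at 1.40 ± 0.57, and Ikzf1, at -0.24 ± 0.19. Of 11 SPN genes that cortical neurons also express, 11 were higher, with a median of 2.41, and Penk, the enkephalin precursor of the indirect pathway, had the largest value, 3.21 ± 0.10. Over all 14072 genes the median was 0.02, and 29.5% were called higher.

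Of 12 genes of cortical excitatory neurons, 9 were called lower in Control_TRAP, as were 30.4% of all genes, and 2, Foxp2 and Tle4, higher, with a median log2 fold change of -1.10. Slc17a7, the vesicular glutamate transporter of cortical pyramidal neurons, had 107 to 454 CPM in TRAP and 716 to 1043 in total-RNA and was lower in TRAP in 11 of 11 mice. Camk2a, whose promoter drives the tTA transgene, had 1729 to 2945 CPM in TRAP and 1806 to 2639 in total-RNA. Its level was higher in TRAP in 4 of 11 mice. Summed over the 12 genes, which Camk2a dominates, the level was 2573 to 3669 CPM in TRAP and 3483 to 4526 in total-RNA, while the 9 SPN genes summed to 6231 to 8283 CPM in TRAP and 760.4 to 1419 in total-RNA. Camk2a and Slc17a7 were thus present in both pools, and all of the 12 but Camk2a, Foxp2 and Tle4 were lower in TRAP in 11 of 11 mice.

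GABAergic genes went in both directions. Gad1, a GABA-synthesising enzyme, had 482 to 739 CPM in TRAP and 265 to 351 in total-RNA and was higher in TRAP in 11 of 11 mice, as were Gad2 and Slc32a1, which SPNs also express. Over the list, 3 of 8 genes were called higher and 3, Pvalb, Lhx6 and Npy, lower, with a median of -0.53. Of all genes 29.5% were called higher and 30.4% lower, so nothing is read from these counts. Of the 4 cholinergic genes tested, 4 were lower, with a median of -2.58, and Chat, the acetylcholine-synthesising enzyme, had 0 to 1.96 CPM in TRAP against 3.02 to 6.24 in total-RNA. All tested astrocyte (5), oligodendrocyte (5), microglia (5), endothelial (4) and choroid plexus (2) genes were lower in TRAP, with medians of -3.26, -2.93, -3.59, -2.99 and -4.19. The part that any of these cells had in the levels of the 9 genes was not tested.

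**Figure D2:**
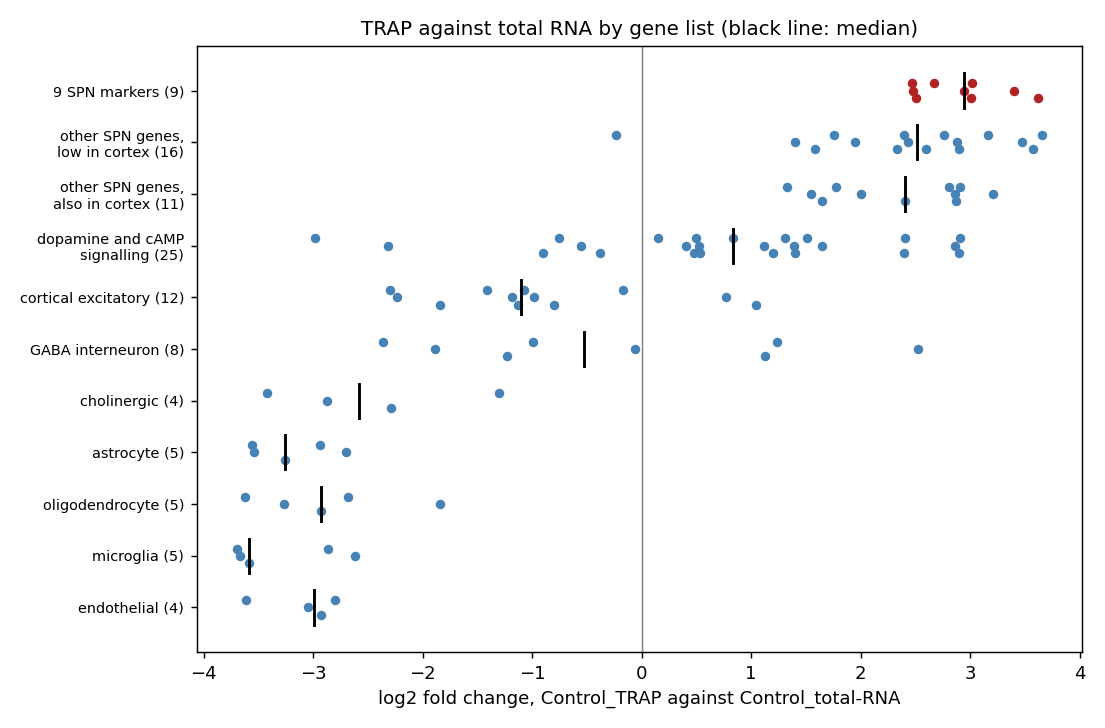
Log2 fold change of Control_TRAP against Control_total-RNA (n = 3 each) for the genes of each list, 1 point per gene with small vertical offsets for visibility, and the list median as a black line. The 9 SPN markers lie between 2.47 and 3.62, and the median of the cortical excitatory list lies at -1.10.

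The proteins that carry the signal of these receptors were followed through 25 tested genes. In Control, 17 were called higher in TRAP, 6 lower and 2 did not pass the test. Over all genes 29.5% were called higher and 30.4% lower. Gng7, the γ subunit that pairs with Golf in the striatum, had a log2 fold change of 2.91 ± 0.15, Pde1b, a calcium-dependent phosphodiesterase, 2.86 ± 0.09, and Gnal, the Golf α subunit, 1.64 ± 0.09. Gnas, the α subunit of Gs that predominates outside the striatum, was lower in TRAP, at -0.90 ± 0.10. The other dopamine receptor of the D1 class, Drd5, had 0 to 1.80 CPM in TRAP against 2.32 to 4.48 in total-RNA, the reverse of Drd1. Likewise the receptors of the tachykinins that Tac1 encodes, Tacr1 and Tacr3, were lower in TRAP in 11 of 11 mice.

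The first treatment comparison asked which RNAs differed with ethanol among those held by tagged ribosomes. In EtOH_TRAP against Control_TRAP, 1 of the 9 genes passed the test and it fell, where 5.24% of all genes passed and 2.47% fell. The level of Drd2 fell by 0.56 on the log2 scale (SE 0.14, 0.677-fold, adjusted p = 0.0406 by edgeR's quasi-likelihood test over all 14072 genes), and its groups did not overlap, as was so for 11.9% of all genes in this direction. The call rested on every Control library and on most EtOH libraries. It was lost without Control mouse 1 (adjusted p = 0.209), 4 (0.155) or 7 (0.0763) and without EtOH mouse 2 (0.0705), 5 (0.0791) or 8 (0.0646), and it held without EtOH mouse 9 (0.0202), at log2 fold changes from -0.67 to -0.48. With 1 fit over all 22 libraries the value was -0.58 and the adjusted p 0.0803.

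The other indirect-pathway genes did not pass the test, with log2 fold changes of -0.23 ± 0.15 (SE) for Adora2a and -0.14 ± 0.14 for Gpr6, and neither did Adcy5, at -0.34 ± 0.17. On the direct side, Tac1 had a log2 fold change of 0.42 ± 0.19 (adjusted p = 0.207), Isl1 of 0.39 ± 0.23 (0.336) and Drd1 of 0.10 ± 0.16 (0.736). Ppp1r1b stood at 0.52 ± 0.17 with an adjusted p of 0.0937, and Rgs9 at 0.19 ± 0.19. Ppp1r1b passed with DESeq2 (adjusted p = 0.0446) and without EtOH mouse 9 (0.0347). The median over the 9 genes was 0.10 and that over all genes 0.02.

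In total-RNA, ethanol went with higher levels of 3 of the 9 genes, where 17.6% of all genes passed the test and 9.04% rose. Tac1 rose by 0.66 ± 0.15 on the log2 scale (1.57-fold, adjusted p = 0.0109), Ppp1r1b by 0.67 ± 0.15 (1.59-fold, 0.00996) and Isl1 by 0.94 ± 0.29 (1.92-fold, 0.0438), all by edgeR's quasi-likelihood test over all genes. For Tac1 and Ppp1r1b the groups did not overlap, as was so for 14.8% of all genes in this direction. None of the other 6 passed: Drd1 had 0.26 ± 0.15 (adjusted p = 0.231), Drd2 -0.36 ± 0.20 (0.221), Adora2a 0.02 ± 0.21, Gpr6 -0.02 ± 0.23, Rgs9 -0.01 ± 0.11 and Adcy5 -0.13 ± 0.13. The median over the 9 genes was 0.02, against 0.00 over all genes.

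Single libraries decided part of these calls. Isl1 lost its call without Control mouse 1 (adjusted p = 0.143), 4 (0.163) or 7 (0.0729) and without EtOH mouse 2 (0.0987) or 5 (0.108), the 2 mice in which it was highest. Tac1 lost it without Control mouse 4 (0.0593) and Ppp1r1b without Control mouse 1 (0.0617). The value of Drd2 ran from -0.58 without EtOH mouse 5, where it passed the test (adjusted p = 0.0322), to -0.19 without Control mouse 4 (0.615). With 1 fit over all 22 libraries, in which TRAP and total-RNA share the estimate of the spread, 0 of the 9 passed in total-RNA, with adjusted p = 0.122 for Tac1, 0.0764 for Ppp1r1b and 0.0885 for Isl1, at log2 fold changes of 0.65, 0.67 and 0.94. That fit called 105 genes higher and 46 lower in this comparison, against 1272 and 1210 with the total-RNA libraries alone. With edgeR's exactTest on the total-RNA libraries the adjusted p was 0.000668 for Tac1, 0.000394 for Ppp1r1b and 0.0176 for Isl1. With DESeq2 it was 0.000508, 0.000321 and 0.0131 for these genes in the same order.

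Other listed genes were read in total-RNA against the 9.04% of all genes that rose and the 8.6% that fell. Of the 16 SPN genes that are low in cortex, 5 rose (Six3, Sp9, Gpr149, Dlx6 and Pdyn) and Rxrg fell, and 10 did not pass. Sp9 and Dlx6 encode transcription factors of developing SPNs and of other GABAergic neurons, and Pdyn, the dynorphin precursor of the direct pathway, rose by 0.55 ± 0.13. The summed level of the 16 genes overlapped between EtOH_total-RNA, at 1115 to 1623 CPM, and Control_total-RNA, at 1148 to 1514. Among the cholinergic genes, which share Isl1 with the SPNs, Slc5a7 rose by 0.72 ± 0.14 and Lhx8 by 1.73 ± 0.43 in 4 tested, and the summed level of the list of 5 was 28.2 to 38.9 CPM in EtOH against 17.6 to 22.7 in Control. Of the 8 GABAergic interneuron genes, Gad2 rose by 0.40 ± 0.11 and 7 did not pass, from -0.48 ± 0.16 for Npy to 0.18 ± 0.11 for Slc32a1, with a median of 0.019 over the list. The part of these cells in the results for Tac1, Isl1 and Ppp1r1b was not tested.

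When the mean level of the other SPN genes was added as a covariate, a choice made after the data were seen, Tac1 had a log2 fold change of 0.51 (adjusted p = 0.115), Ppp1r1b of 0.38 (0.0888) and Isl1 of 0.51 (0.388) in total-RNA, so that none of the 3 passed. With the same covariate Drd2 passed, at -0.78 (adjusted p = 0.0169). In TRAP the covariate left the value of Drd2 at -0.56, with an adjusted p of 0.0508.

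For the wider lists in TRAP, EtOH went with lower levels of Rxrg, a retinoid receptor of SPNs, at a log2 fold change of -0.91 ± 0.14, and of Syndig1l, at -0.79 ± 0.18, and 14 of the 16 SPN genes low in cortex did not pass the test. Of the 25 signalling genes 3 passed in TRAP, against 5.24% of all genes, and 4 in total-RNA, against 17.6% of all genes. In TRAP Cdk5, a kinase that phosphorylates DARPP-32, rose by 0.59 ± 0.15, Pde4b, a cAMP phosphodiesterase, rose by 0.75 ± 0.16, and Rgs7bp, which anchors RGS9 and its relatives at the membrane, changed by -0.77 ± 0.18. Pde4b rose in total-RNA too, by 0.58 ± 0.14, while there Gnb5, the obligate partner of RGS9, changed by -0.59 ± 0.11, Prkar1b by -0.35 ± 0.10 and Ppp1ca, the phosphatase that DARPP-32 inhibits, by -0.30 ± 0.10. None of the 11 SPN genes shared with cortex passed in either pool. Neurod6, a factor of cortical excitatory neurons, fell in EtOH in both pools, by 1.68 (SE 0.30) in TRAP and by 0.99 (SE 0.15) in total-RNA.

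With EtOH + ABT-888 against Control, 0 of the 9 genes passed the test in TRAP, where 0.476% of all genes did, and 0 in total-RNA, where 0.263% did. Drd2 had a log2 fold change of -0.38 ± 0.17 (adjusted p = 0.406) in TRAP and of -0.49 ± 0.20 (0.260) in total-RNA. Ppp1r1b stood at 0.35 ± 0.17 (0.446) and at 0.29 ± 0.14 (0.339). In TRAP the others ranged from -0.17 ± 0.21 for Gpr6 to 0.26 ± 0.22 for Isl1, and in total-RNA from -0.32 ± 0.18 for Gpr6 to 0.20 ± 0.23 for Isl1. These comparisons use the same Control libraries as those of EtOH.

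**Figure D3:**
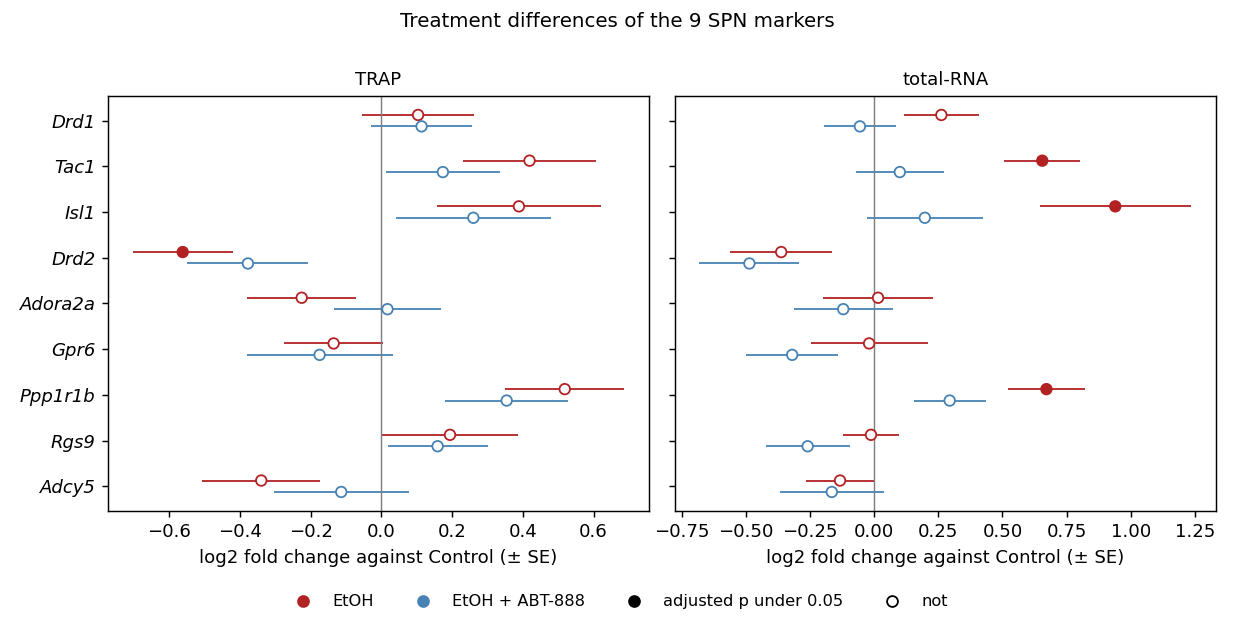
Log2 fold change against Control (± SE, edgeR) of each gene in TRAP (left) and total-RNA (right), for EtOH (red, n = 4 against 3) and EtOH + ABT-888 (blue, n = 4 against 3), on axes of different range. Filled points have an adjusted p under 0.05, which are Drd2 in EtOH_TRAP and Tac1, Isl1 and Ppp1r1b in EtOH_total-RNA.

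ABT-888 was also compared with ethanol alone. In EtOH + ABT-888 against EtOH, 0 of the 9 genes and 0 of all genes (0.0%) passed edgeR's quasi-likelihood test in either pool. Of the 14072 genes, 136 in TRAP and 269 in total-RNA had an unadjusted p under 0.05 in that test. DESeq2 and edgeR's exactTest called 0 genes in TRAP and 2 each in total-RNA, and 0 of the 9. The log2 fold changes lay between -0.24 ± 0.19 for Tac1 and 0.24 ± 0.15 for Adora2a in TRAP. In total-RNA they lay between -0.74 ± 0.28 for Isl1 and -0.03 ± 0.18 for Adcy5. The sign of Adcy5 changed with the covariate (0.30) and when 1 library was left out (up to 0.059). The value of Isl1 ran from -0.94 to -0.57 when 1 library was left out and from -0.74 to -0.22 over the other alternatives. Tac1 (-0.56 ± 0.19), Isl1 and Ppp1r1b (-0.38 ± 0.16) were among the 269 genes with an unadjusted p under 0.05 in edgeR's quasi-likelihood test, and none of them passed after adjustment. The 4 EtOH_total-RNA libraries in this comparison are those in which the same 3 genes were called higher than in Control. Their lower values against EtOH are therefore not a separate observation, and no effect of ABT-888 is read from them. The groups of all 9 genes overlapped in both pools.

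Whether the ethanol difference was unlike between TRAP and total-RNA was tested by the interaction of treatment and pool over all 22 libraries. For EtOH, 0 of the 9 genes passed, with 0.0213% of all genes called, and the difference of log2 fold changes lay between -0.57 ± 0.36 for Isl1 and 0.19 ± 0.25 for Rgs9. For EtOH + ABT-888, 0 of the 9 genes and 0.0% of all genes passed, 476 genes had an unadjusted p under 0.05, and the difference lay between 0.04 ± 0.29 for Adcy5 and 0.41 ± 0.25 for Rgs9. DESeq2 called 3 genes higher and 1 lower in this last test, and 0 of the 9. So the call of Drd2 in TRAP alone and those of Tac1, Isl1 and Ppp1r1b in total-RNA alone are not shown to differ between the pools.

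The balance of the 2 pathways was read from the ratio of Drd1 to Drd2 per kilobase of exon, a pair chosen after its values were seen and therefore given without a test. In TRAP the ratio was 0.458 to 0.526 in Control, 0.545 to 1.00 in EtOH and 0.557 to 0.813 in EtOH + ABT-888. In total-RNA it was 0.826 to 1.02 in Control, 1.23 to 1.72 in EtOH and 1.06 to 1.43 in EtOH + ABT-888. Every treated library lay above every Control library of its pool, but the treated groups share the 3 Control mice and both pools come from the same mice, so these are not separate observations. Set against Drd2 in the same way, 11.6% of all genes were higher without overlap in both pools under EtOH, and the share was 5.33% under the combined treatment. The ratio of Tac1 to Adora2a, another direct and indirect pair, overlapped Control in all 4 comparisons, for example at 0.510 to 1.16 in EtOH_TRAP against 0.436 to 0.552 in Control_TRAP.

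**Figure D4:**
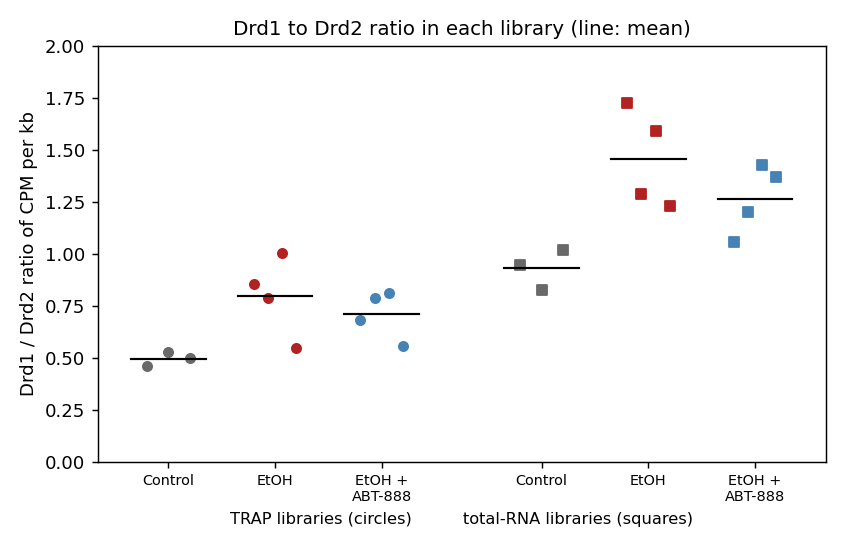
Ratio of Drd1 to Drd2, each in CPM per kb of exon, in every TRAP (circles) and total-RNA (squares) library of Control, EtOH and EtOH + ABT-888, on a linear axis from 0, with group means as lines. In both pools the 3 Control libraries lie below all libraries of the 2 treated groups.

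Correlations between the 9 genes across libraries were mostly positive in total-RNA and of both signs in TRAP. Over the 36 pairs of genes, Pearson's r of log2 CPM across 11 libraries had a median of 0.65 in total-RNA, with 34 pairs above 0, and of 0.06 in TRAP, with 20 pairs above 0. In TRAP the 3 pairs within the direct pathway had a median of 0.44, the 3 within the indirect pathway of 0.34 and the 9 between the pathways of -0.20. In total-RNA these medians were 0.77, 0.81 and 0.35. The highest r in TRAP was 0.79, between Drd1 and Tac1, and the lowest was -0.57, between Drd2 and Ppp1r1b. These r values describe 11 libraries in 3 treatment groups that share preparation and depth differences, and no test was made.

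**Figure D5:**
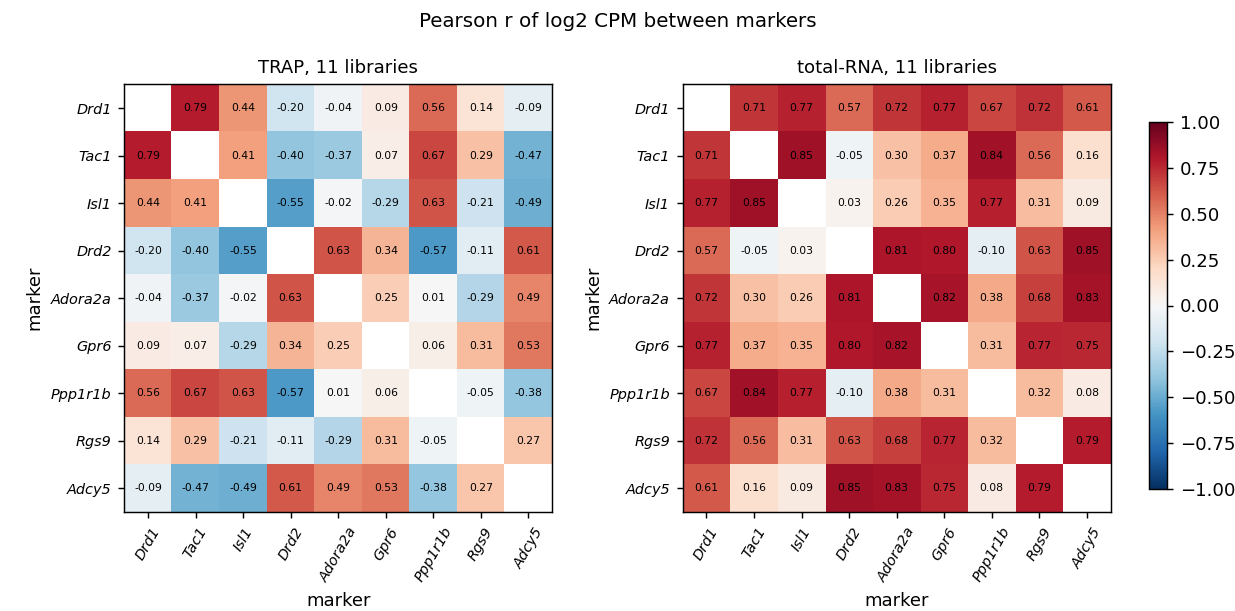
Pearson's r between the log2 CPM of each pair of genes across the 11 TRAP libraries (left) and the 11 total-RNA libraries (right), coloured from -1 (blue) to 1 (red). In TRAP Drd1 and Tac1 share the highest r, 0.79, and in total-RNA 34 of the 36 pairs are above 0.

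Genes whose pattern was most like the mean of the 9 were sought by the smaller of 2 Pearson r values, 1 over the 11 TRAP and 1 over the 11 total-RNA libraries. Gng7 (0.83), Asic4 (0.83) and Necab2 (0.78) came first, followed by Nlrp5-ps (0.70), Pdyn (0.68), Pde1b (0.68), Ppp1r16b (0.67), Kcnip2 (0.67), Ddn (0.67) and 1700037H04Rik (0.66). The Control difference between TRAP and total-RNA, which this measure did not use, was a log2 fold change of 2.91 for Gng7, 2.96 for Asic4, 2.81 for Necab2, 2.33 for Pdyn, 2.86 for Pde1b and 2.04 for Kcnip2. It was 0.88 for Ppp1r16b, 0.95 for Ddn, 2.35 for 1700037H04Rik and -2.34 for Nlrp5-ps, a pseudogene with a median of 1.81 CPM in TRAP. Among the 9 themselves the smaller r ran from 0.19 for Drd2 to 0.69 for Drd1.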

How the data were processed

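TRAP and total-RNA libraries of the PFC came from 3 Control, 4 EtOH and 4 EtOH + ABT-888 mice, 22 libraries in all, and samples were grouped by their labels. The authors depleted ribosomal RNA, aligned reads to mm10 with STAR and deposited raw counts from featureCounts, whole reads per gene without normalization. Versions, the strand setting and the treatment of multiply mapped reads are not given in the sources used here. No column was left unmapped, and Gpr52, of the list of SPN genes low in cortex, was not analysed here.

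Positions and exon lengths came from GENCODE M21. Symbols came from a reference list of gene names, which gave one for 38872 of the 39056 genes. The filter on low values asked for a sum of 500 counts and for reads in 3 or more libraries, which 14072 genes met and 24984 did not. The analysis used R 4.3.3 and edgeR 4.0.16 (TMM factors, quasi-likelihood test on the libraries of the groups compared, Benjamini-Hochberg adjustment over all tested genes, threshold 0.05), limma 3.58.1 and DESeq2 1.42.0. The SE is the log2 fold change divided by the root of its F statistic. CPM used TMM factors over all 22 libraries, and log2 CPM a prior count of 1. The interaction was fitted over all 22 libraries, without a term for the mouse in the main fit. Scripts were tested on simulated data.

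The 9 genes and all lists were chosen with earlier results of these data known. Named were the 9 genes, every listed gene that passed a treatment test (up to 10 per comparison and list), Camk2a, Slc17a7, Gad1 and Chat as defining markers, and the 10 genes most like the 9 in pattern. Not every gene that met this rule is reported here. Genes named beyond these were chosen after their values were seen. Libraries are paired by the animal number that the labels give each sample, and the deviations of paired libraries from their group means correlated over genes with r between 0.10 and 0.62 (median 0.33) in 11 of 11 mice. In treatment comparisons within a pool each mouse is 1 replicate, and p-values measure the spread between mice, 3 or 4 per group. The main fits of TRAP against total-RNA and of the interaction held no term for the mouse. In them the 2 libraries of a mouse entered as separate replicates, so their SE and p-values ignore the pairing. Alternatives were RLE factors, no filter on low counts, DESeq2, exactTest, 1 fit over all 22 libraries, the mouse as a block, the likelihood ratio test for the interaction, leaving out each library, and, added after the data were seen, the mean level of other SPN genes as a covariate.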

Additional observations from a re-analysis of the deposited data

Results flagged for a closer look

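Of 36 groups of 4 libraries examined (9 genes in the 4 groups with 4 mice), 1 held a library that stood apart from the other 3 by Dixon's criterion for 4 values. Gpr6 in EtOH_total-RNA was highest in mouse 5, at 24.7 CPM, against 11.3 to 13.3 CPM in the other 3, a gap of 0.852 of the range. Chance alone flags about 1 in 20 groups. The same library was also the highest of the EtOH_total-RNA group for Drd1, Drd2, Adora2a, Ppp1r1b, Rgs9 and Adcy5, and the cause was not tested.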

How the results depend on the processing

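In EtOH_TRAP against Control_TRAP the count of the 9 genes that passed was 1, and it was 2 with DESeq2, 0 with 1 fit over all 22 libraries, 0 with the covariate and 0 to 2 when 1 library was left out. In EtOH_total-RNA the count was 3, and it was 0 with 1 fit over all 22 libraries, 1 with the covariate and 1 to 3 when 1 library was left out. All other counts of treatment and interaction tests stayed at 0 under every alternative run. The mouse as a block (in fits that hold both pools) left the interaction counts at 0 and gave medians over the 9 of 2.94, 2.68 and 3.04 for TRAP against total-RNA in Control, EtOH and EtOH + ABT-888, and it changed no call. The medians over the 9 lay between 2.55 and 3.08 under all alternatives in the 3 treatments. The covariate turned the sign of uncalled values in EtOH_total-RNA (Drd1 -0.034, Adora2a -0.44), in EtOH + ABT-888_total-RNA against Control (Drd1 0.011) and against EtOH (Adcy5 0.30). Leaving out 1 library turned the sign of other uncalled log2 fold changes, which ran in EtOH_total-RNA from -0.25 to 0.19 for Adora2a, from -0.34 to 0.10 for Gpr6, from -0.079 to 0.064 for Rgs9 and from -0.24 to 0.038 for Adcy5, in EtOH + ABT-888_TRAP from -0.080 to 0.12 for Adora2a and from -0.28 to 0.037 for Adcy5, in EtOH + ABT-888_total-RNA from -0.14 to 0.015 for Drd1, from -0.28 to 0.056 for Adora2a and from -0.38 to 0.0061 for Adcy5, in EtOH + ABT-888_total-RNA against EtOH_total-RNA from -0.25 to 0.059 for Adcy5, and in the interaction with EtOH + ABT-888 from -0.13 to 0.26 for Adcy5. The causes were not tested. Isl1 had the fewest reads of the 9, at 66 to 254 per total-RNA library.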

Other observations

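Genes of non-neuronal cells moved with ethanol in total-RNA, the pool in which Tac1, Isl1 and Ppp1r1b rose. All 5 microglia genes were called lower in EtOH_total-RNA than in Control_total-RNA, where 8.6% of all genes were, and their summed level was 62.9 to 89.0 CPM in EtOH against 206 to 218 in Control. In TRAP 1 of the 5, P2ry12, passed the test and was lower, as were 2.47% of all genes, at summed levels of 4.08 to 16.7 CPM against 12.2 to 23.1. Among the astrocyte genes Gfap, the intermediate filament of reactive astrocytes, was higher by a log2 fold change of 0.75 ± 0.23 and Aqp4 was lower, at -0.41 ± 0.11. Mobp, a myelin gene, was higher at 0.79 ± 0.13, and Flt1 (-0.45 ± 0.14) and Tek (-0.99 ± 0.24) of the endothelial list were lower. Ttr, the choroid plexus gene, was lower at -3.25 ± 0.91, and the choroid list summed to 5.26 to 101 CPM over the Control libraries. Among cortical excitatory genes Neurod2 was higher (0.66 ± 0.11) in EtOH_total-RNA. With EtOH + ABT-888, Neurod6 was lower in both pools.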
